A study of Mus musculus with 4 samples.

Results

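Of 4426 Trim33 peaks in mouse embryoid bodies, 1119 peaks (25.3%) shared no base with any CTCF peak or any peak of histone H3 acetylated at lysine 27 (H3K27ac), and these 1119 regions are described here. They were chosen by their overlap alone, so the absence of both marks under them is the rule and not a result. Of the other Trim33 peaks, 1422 overlapped CTCF only, 1328 overlapped H3K27ac only and 557 overlapped both. The authors' deposited table of merged regions also lists 1119 regions with Trim33 alone. The peaks come from chromatin immunoprecipitation followed by sequencing, which counts DNA fragments recovered with an antibody. There was 1 library for each of 3 antibodies, against Trim33, CTCF and H3K27ac, and 1 library of input DNA. No value therefore has a replicate check, and intervals cover counting error only.

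All 4 libraries were made from embryoid bodies, aggregates of differentiating embryonic stem cells, harvested at day 6. The stem cells were derived from blastocysts of genotype Trim33FF UbcCreERT2, and the strain is given as Outbred - B6:129Sv. This genotype combines a conditional Trim33 allele with an inducible Cre under the ubiquitin C promoter. The treatment field of the labels reads n/a, and cells without Trim33 were not analysed here, so the specificity of the antibody was not tested. An embryoid body holds several cell types, so a weak peak in many cells and a strong peak in few cells cannot be told apart. H3K27ac summits lay within 1 kb of an end of 13 of 30 marker genes, against 39.2% of all protein-coding genes. They were found at 4 of 6 pluripotency genes (Pou5f1, Sox2, Nanog and Klf4), 3 of 6 primitive streak genes (Eomes, Fgf8 and Evx1) and 3 of 6 endoderm genes (Sox17, Foxa2 and Gata6). They were found at 2 of 6 neural genes (Sox1 and Irx3) and at 1 of 6 mesoderm and heart genes (Gata4). In the authors' deposited table, 13643929 tags entered the Trim33 list, with 0.72% of reads inside peaks, against 26.46% for CTCF and 13.02% for H3K27ac. The Trim33 and input libraries carry another project code in that table than the CTCF and H3K27ac libraries, so antibody and project code cannot be told apart.

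Trim33 is a chromatin protein that reads modified histone H3 tails through a PHD finger and a bromodomain. It binds Smad2 and Smad3 and takes part in the response to Nodal, a signal that sets up mesoderm and endoderm. CTCF is the zinc finger protein of insulators and chromatin loop anchors. H3K27ac lies on nucleosomes beside active promoters and enhancers, while the factor-bound centre of such an element is often depleted of nucleosomes.

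Sequence could be read only where a peak lay over a listed promoter, a window of 300 bases from 250 before to 50 after a RefSeq transcript start (GRCm38.p6, the assembly of mm10). These windows were reached by 78 of the peaks, over 91 windows of 87 genes, and 44 of the summits lay inside a window. The windows had a median GC content of 62.0%, against 52.7% over all 32851 promoters. Their median ratio of observed to expected CpG was 0.772, against 0.384 over all promoters. A ratio above 0.6 was found in 78.0% of them (95% Wilson interval 68.5 to 85.3), in 68.5% of windows with CTCF only and in 88.0% of windows with H3K27ac only.

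Of 15 motifs searched on both strands, the E-box CACGTG, the site of Myc and related factors, was found in more of these windows than any other. It reads the same on both strands and is contained in none of the other motifs. CACGTG occurred in 7.15% of all promoters. It occurred in at least 1 window of 15 of the 78 peaks (19.2%, 12.0 to 29.3), and in 7 of these a match lay under the peak itself. The share was 5.88% (2.88 to 11.6) of 119 peaks with CTCF only, 12.2% (9.22 to 15.9) of 370 with H3K27ac only and 11.9% (7.89 to 17.5) of 177 with both. The interval lay above that of the CTCF-only peaks and overlapped the other intervals. The 4 windows below, chosen after the matches were seen because the E-box lay close to the summit, show it in capitals. Each is printed 5′ to 3′ on the strand of its gene.
Gadd45g: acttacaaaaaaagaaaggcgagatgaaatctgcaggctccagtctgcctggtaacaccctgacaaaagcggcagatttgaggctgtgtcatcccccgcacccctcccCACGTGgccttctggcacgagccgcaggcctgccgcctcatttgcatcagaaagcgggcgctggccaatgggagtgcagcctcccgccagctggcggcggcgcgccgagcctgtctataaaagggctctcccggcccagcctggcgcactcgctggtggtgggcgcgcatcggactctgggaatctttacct
Sfmbt1: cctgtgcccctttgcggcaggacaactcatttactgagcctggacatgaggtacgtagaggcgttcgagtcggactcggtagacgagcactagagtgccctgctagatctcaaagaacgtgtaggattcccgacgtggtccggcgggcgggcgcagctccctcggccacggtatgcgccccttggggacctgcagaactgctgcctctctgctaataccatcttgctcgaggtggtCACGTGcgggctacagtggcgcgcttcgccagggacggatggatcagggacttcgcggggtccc
Atg5: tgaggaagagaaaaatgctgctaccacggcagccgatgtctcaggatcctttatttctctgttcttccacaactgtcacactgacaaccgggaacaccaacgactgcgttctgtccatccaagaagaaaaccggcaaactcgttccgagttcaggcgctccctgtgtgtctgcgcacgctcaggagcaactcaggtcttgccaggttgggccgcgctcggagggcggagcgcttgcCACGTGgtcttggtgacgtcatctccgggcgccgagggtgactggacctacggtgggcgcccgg
Zscan18: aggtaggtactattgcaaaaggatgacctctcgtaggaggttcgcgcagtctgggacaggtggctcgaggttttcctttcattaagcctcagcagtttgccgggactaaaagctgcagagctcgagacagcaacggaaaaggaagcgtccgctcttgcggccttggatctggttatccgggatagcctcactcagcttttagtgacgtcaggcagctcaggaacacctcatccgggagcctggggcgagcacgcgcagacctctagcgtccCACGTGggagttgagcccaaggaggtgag
The E-box centre lay 1.5 bp from the summit at Gadd45g, which encodes a stress-induced cell cycle inhibitor. It lay 43.5 bp from the summit at Sfmbt1, which encodes a repressor with MBT domains, and also 43.5 bp from it at Atg5, an autophagy gene. At Zscan18, which encodes a zinc finger protein, the distance was 50.5 bp. A match is a description of the letters and not evidence of a bound factor.

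The ZBTB33 palindrome, a motif of CpG-rich promoters that also reads the same on both strands, occurred in 0.466% of all promoters. It occurred at 14 of the 370 peaks with H3K27ac only (3.78%), 7 of the 177 with both (3.95%) and none of the 119 with CTCF only. Of the 78 peaks, 2 held it (2.56%, 0.706 to 8.88). The 2 peaks lay at the 1600012H06Rik and Wdr27 promoter and at the Smc1b and Ribc2 promoter, and both are shown because they were the matches found, with the palindrome in capitals.
1600012H06Rik: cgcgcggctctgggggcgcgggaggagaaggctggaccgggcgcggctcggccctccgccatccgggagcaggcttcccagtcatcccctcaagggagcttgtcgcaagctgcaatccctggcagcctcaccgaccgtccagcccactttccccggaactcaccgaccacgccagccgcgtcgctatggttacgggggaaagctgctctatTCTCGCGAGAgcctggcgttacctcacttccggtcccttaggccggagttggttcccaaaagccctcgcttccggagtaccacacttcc
Smc1b: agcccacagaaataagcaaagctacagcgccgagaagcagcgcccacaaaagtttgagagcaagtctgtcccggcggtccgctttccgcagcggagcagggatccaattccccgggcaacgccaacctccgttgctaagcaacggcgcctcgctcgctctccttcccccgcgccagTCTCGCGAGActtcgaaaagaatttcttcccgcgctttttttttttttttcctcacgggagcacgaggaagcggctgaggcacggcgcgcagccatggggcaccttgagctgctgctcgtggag
The palindrome lay 74.5 bp from the summit at 1600012H06Rik and 219.5 bp from it at Smc1b, which encodes a meiotic cohesin subunit. The core of the CTCF motif was found at 12.8% of the 78 peaks (7.12 to 22.0), against 31.9% (24.2 to 40.8) of those with CTCF only and 8.61% of all promoters. It lay under the peak itself at 4 of these 10 peaks, and at 28 of the 38 with CTCF only. AAGATGGC, the YY1 motif, was found at none of the 78 (upper Wilson limit 4.69%), at 7.57% (5.29 to 10.7) of those with H3K27ac only and in 2.75% of all promoters.

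The other motifs are given as the share of the 78 peaks beside the share of all promoters, where a peak over several windows counts once. A match counts anywhere in the window and need not lie under the peak. ATGCAAAT, the octamer of Oct factors, was found at 6.41% (2.77 to 14.1) against 1.74%, and at 1.08% (0.421 to 2.75) of peaks with H3K27ac only. It lay under the peak itself at 1 of these 5 peaks, and at 2 of the 4 with H3K27ac only. The ETS motif CCGGAAGT was found at 8.97% (4.42 to 17.4) against 3.89%, and the NFY motif CCAATCAG at 8.97% (4.42 to 17.4) against 4.1%. The CREB element TGACGTCA was found at 5.13% (2.01 to 12.5) against 1.79%, and the NRF1 motif at 12.8% (7.12 to 22.0) against 6.23%. With H3K27ac only the shares were 13.5%, 5.95%, 5.68% and 12.97%, in the same order. With CTCF only they were 2.52%, 4.2%, 1.68% and 11.8%. For the ETS, NFY, CREB and NRF1 motifs the interval overlapped that of every other class. The octamer interval lay just above that of peaks with H3K27ac only and overlapped those of the other classes. All promoters were poorer in CpG than these windows, and this difference was not adjusted for. TGCCGC, the core of the ZFP57 motif, was found at 15.4% (9.03 to 25) against 11.6%, and at 23.2% of peaks with H3K27ac only. The AP-1 element TGANTCA was found at 6.41% against 7.81%. The Smad palindrome GTCTAGAC was found at none of the peaks (upper limit 4.69%) against 0.213%, and the FOXH1 motif TGTGNATT, the T-box site TCACACCT and the GATA motif AGATAAG at 1.28% each (0.227 to 6.91), against 3.6%, 1.28% and 3.04%, all within that interval.

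In 3 further windows the summit lay inside the window, and the bases under the Trim33 peak are in capitals. They were chosen after their values were seen, to show a promoter with fewer CpG (Sp5) beside CpG-rich ones.
Mns1: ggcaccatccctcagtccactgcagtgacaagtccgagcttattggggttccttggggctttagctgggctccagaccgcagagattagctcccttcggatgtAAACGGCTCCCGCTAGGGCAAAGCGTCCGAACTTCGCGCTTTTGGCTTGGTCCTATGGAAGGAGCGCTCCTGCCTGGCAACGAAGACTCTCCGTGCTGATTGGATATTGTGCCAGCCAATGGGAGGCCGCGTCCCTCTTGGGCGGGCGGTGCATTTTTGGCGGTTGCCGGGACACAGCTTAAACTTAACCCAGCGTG
Sp5: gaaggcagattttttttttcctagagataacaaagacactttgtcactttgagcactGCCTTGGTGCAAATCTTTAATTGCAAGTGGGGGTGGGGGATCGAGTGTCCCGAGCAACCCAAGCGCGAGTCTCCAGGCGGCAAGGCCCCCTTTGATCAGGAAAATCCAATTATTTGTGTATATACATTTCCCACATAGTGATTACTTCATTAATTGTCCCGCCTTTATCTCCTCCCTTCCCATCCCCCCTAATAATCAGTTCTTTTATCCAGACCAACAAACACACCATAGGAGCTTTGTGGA
Emx2: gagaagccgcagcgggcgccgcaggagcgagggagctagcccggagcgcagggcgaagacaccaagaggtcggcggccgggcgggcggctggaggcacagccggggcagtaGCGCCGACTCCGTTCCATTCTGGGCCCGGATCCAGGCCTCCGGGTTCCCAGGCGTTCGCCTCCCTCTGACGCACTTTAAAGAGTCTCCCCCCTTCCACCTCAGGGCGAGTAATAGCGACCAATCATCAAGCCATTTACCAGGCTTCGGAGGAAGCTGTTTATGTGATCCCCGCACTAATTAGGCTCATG
The peak covered 197 bases of the window at Mns1, which encodes a protein of sperm flagella and cilia, 243 at Sp5, a Wnt target transcription factor, and 189 at Emx2, a homeobox gene of forebrain and kidney. The Sp5 window holds 6 CpG and 45% GC, against 19 CpG at Mns1 and 26 at Emx2. Its ratio of observed to expected CpG was 0.403, close to the median of 0.384 over all promoters. The ratio was 0.737 at Mns1 and 0.838 at Emx2.

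The peaks were low. Their median fold was 5.63 (range 2.63 to 20.0), with 8 in 10 between 4.42 and 7.64. Fold is the authors' ratio of fragments over the summit to local background, with 1 added to both. A median of 15 fragments covered the summit (10 to 59), over a median local background of 1.63 fragments. Median folds were 5.92 with CTCF only, 5.63 with H3K27ac only and 5.67 with both. The −log10 q was at least 10 in 14.4% of all Trim33 peaks and in 127 of the 1119 (11.3%, 9.62 to 13.3). The difference from the CTCF-only peaks was -5.95 percentage points (95% Newcombe interval -8.63 to -3.21). The difference from the H3K27ac-only peaks was -1.08 points (-3.63 to 1.52). Read the other way, peaks with neither mark made up 27.1% of Trim33 peaks with a −log10 q under 4 and 21.6% (16 of 74) of those at 20 or more.

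**Figure D1:**
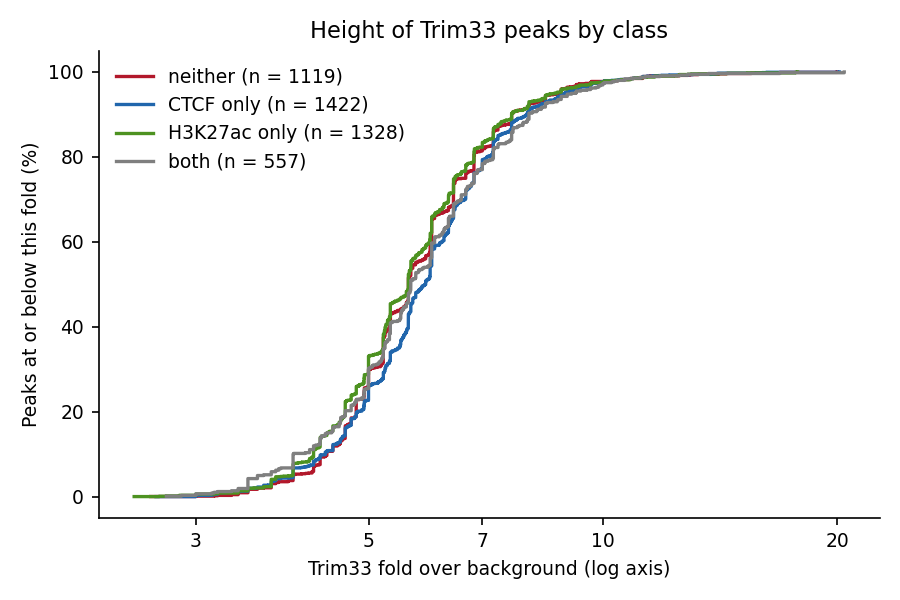
Cumulative share of Trim33 peaks (%) at or below each fold over background (log axis), 1 line per class. The lines lie close together, with medians of 5.63 for neither, 5.92 for CTCF only, 5.63 for H3K27ac only and 5.67 for both.

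The local background under the peaks was at its lowest possible value, the genome-wide 1.49 fragments, in 464 peaks (41.5%, 38.6 to 44.4). This was so in 22.5% of the other Trim33 peaks, a difference of 18.9 percentage points (15.7 to 22.2). Fold, fragments and background all enter the detection of a peak, so the part of background in which peaks were listed was not tested. The lists also stop at different levels: the lowest −log10 p was 7.03 for CTCF and for H3K27ac, against 5.06 for Trim33. The lowest fold was 2.81 for CTCF, 2.20 for H3K27ac and 2.5 for Trim33. The CTCF and H3K27ac libraries held more tags, so a given −log10 p is not the same fold in each list. A CTCF or H3K27ac site with a −log10 p between 5.06 and 7.03 is absent from its list. A Trim33 peak over such a site is counted among the 1119. Of the 1119 themselves, 97 (8.67%) had a −log10 p below 7.03. Such low values also occurred in other classes. The 10th percentile of −log10 p was 7.20 in the 1119 and 7.19 in all Trim33 peaks. It was 7.49 with CTCF only, 6.91 with H3K27ac only and 6.97 with both.

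Some of the peaks stood next to acetylated chromatin without touching it. An H3K27ac peak lay within 1 kb of 270 (24.1%, 21.7 to 26.7), and within 100 bp of 89 (7.95%). For Trim33 peaks with CTCF only, which also lack H3K27ac, the share within 1 kb was 11.7%, lower by 12.4 percentage points (9.39 to 15.4). H3K27ac lay within 1 kb on both sides of 72 peaks (6.43%, 5.14 to 8.03), against 1.13% of the CTCF-only peaks. In those 72 the flanking acetylated peaks stood a median of 745 bp apart around a Trim33 peak of median width 248 bp. Median fold of these flanking H3K27ac peaks was 6.44, against 6.74 over all H3K27ac peaks.

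A CTCF peak lay within 1 kb of 111 (9.92%), against 15.7% of the peaks with H3K27ac only, a difference of -5.74 percentage points (-8.36 to -3.09). Within 10 kb the shares were 39.0% for CTCF and 37.7% for H3K27ac, and within 100 kb 90.3% and 74.4%. The median gap was 16.1 kb to CTCF and 25 kb to H3K27ac. For comparison, the median gap was 9.48 kb from H3K27ac-only peaks to CTCF and 24.1 kb from CTCF-only peaks to H3K27ac. Neither mark lay within 10 kb of 456 peaks (40.8%), and neither lay within 100 kb of 60 (5.36%). Gaps follow from the same lists that chose the peaks, so they are given as a description.

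**Figure D2:**
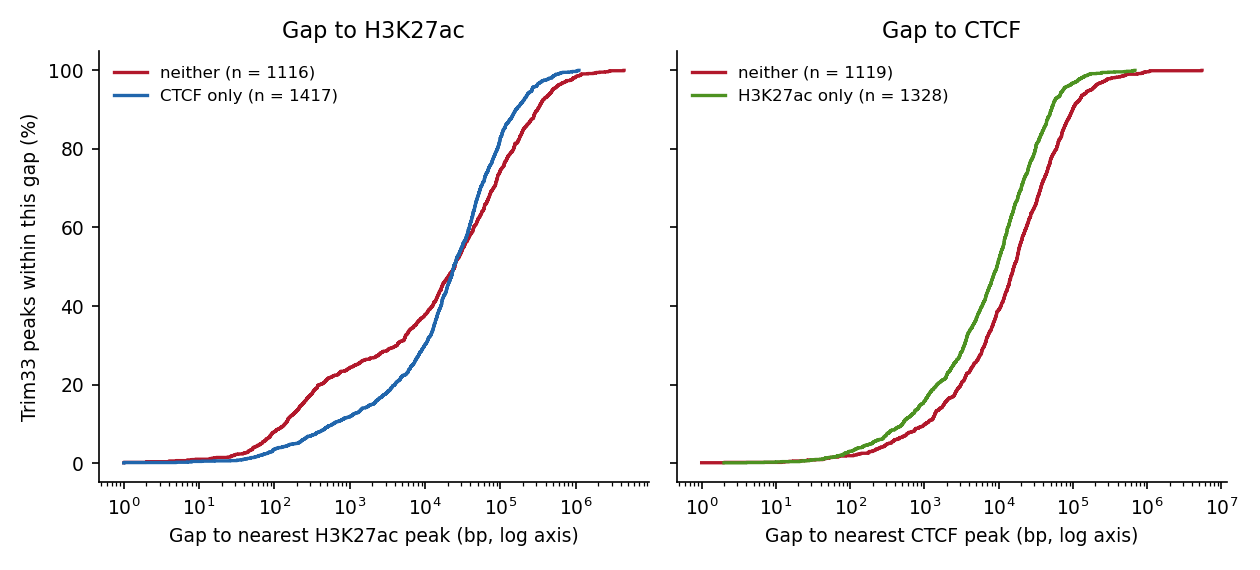
Cumulative share of Trim33 peaks (%) by gap to the nearest H3K27ac peak (left) and CTCF peak (right), in bp on a log axis with gaps of 0 drawn at 1. Within 1 kb, 24.1% of the peaks with neither mark and 11.7% of those with CTCF only reach H3K27ac, while 9.92% with neither and 15.7% with H3K27ac only reach CTCF.

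The edge of the rule runs through some of these neighbourhoods. The gap to a CTCF or H3K27ac peak was under 10 bp for 13 peaks and under 50 bp for 51, while 13 other Trim33 peaks overlapped by under 10 bp and 88 by under 50 bp. Peaks away from gene ends are named here and below by the nearest protein-coding gene, and non-coding genes may lie closer. Just inside, peaks nearest to Pwwp2a (fold 5.67) and Gm29975 (5.0) touched an H3K27ac peak and one nearest to Cngb3 (4.82) touched a CTCF peak, each with a gap of 0. Just outside were peaks nearest to Arhgap5 (5.67), Myc (4.82) and Uck2 (4.82), which overlapped H3K27ac by 2, 3 and 4 bp.

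Only part of the peaks lay at genes. A summit lay within 1 kb of an annotated gene end in 241 (21.5%, 19.2 to 24.0), inside a gene away from its ends in 390 (34.9%), and between genes in 488 (43.6%, 40.7 to 46.5). At gene ends this was close to the CTCF-only peaks (24.3%, difference -2.72 points, -5.98 to 0.58) and far below those with H3K27ac only (52.6%) or both (66.4%). Between genes it was 4.30 points above the CTCF-only peaks (0.44 to 8.15). Among 1084 peaks on chromosomes with a promoter table, 185 (17.1%, 14.9 to 19.4) lay over 100 kb from any listed transcript start, against 6.69% with CTCF only, 7.41% with H3K27ac only and 5.33% with both. The table of starts is not complete, so these distances are to a listed start.

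**Figure D3:**
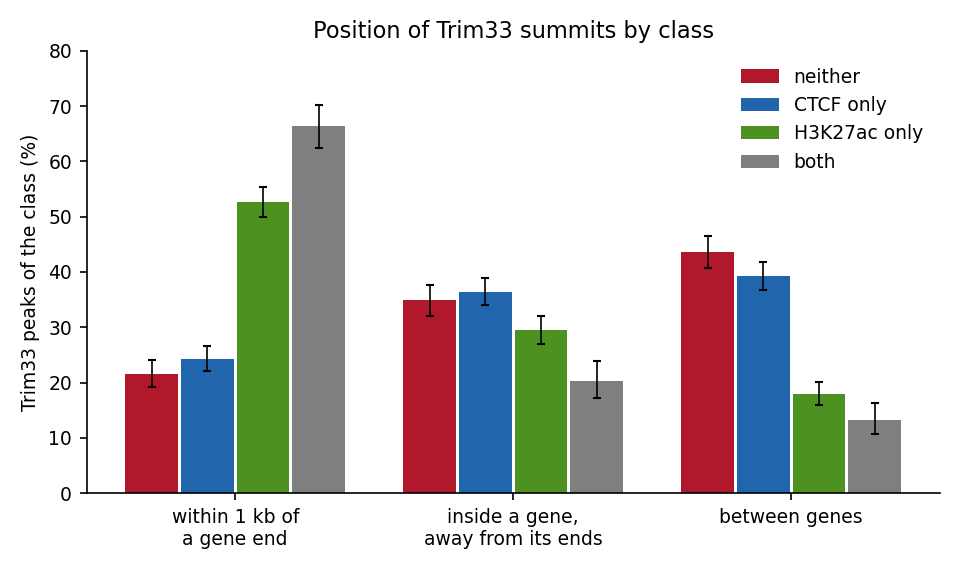
Share of each class of Trim33 peaks (%) with the summit within 1 kb of a gene end, inside a gene away from its ends, or between genes; bars are shares and whiskers 95% Wilson intervals. With neither mark, 21.5%, 34.9% and 43.6% fell in these places, against 52.6% at gene ends for peaks with H3K27ac only.

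Peaks near CTCF lay at gene ends more often than the rest. Of the 76 peaks with CTCF but no H3K27ac within 1 kb, 44.7% (34.1 to 55.9) lay at a gene end, as did 57.1% of the 35 with both close by. Of the 235 with H3K27ac alone within 1 kb, 18.3% (13.9 to 23.7) did, and of the 60 with nothing within 100 kb, 8.33% (3.61 to 18.1). With the nearest mark at 1 to 10 kb the share was 22.4% of 317 (18.2 to 27.3), and at 10 to 100 kb it was 17.2% of 396 (13.8 to 21.2). Median folds ran from 5.22 with CTCF alone close by to 6.03 with nothing within 100 kb.

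The highest peak, chr8:120528080-120528763 (mm10), lay inside Gse1, which encodes a co-repressor protein that associates with histone demethylase and deacetylase complexes, and 52.9 kb from the nearer end of Gins2, a DNA replication gene. It reached 20.0-fold, with 59 fragments (exact Poisson interval 44.9 to 76.1) over a background of 2.00, and CTCF and H3K27ac peaks lay 5.83 and 7.05 kb away. Inside Gse1 lay 5 of the 1119 peaks out of 14 Trim33 peaks, with folds from 3.50 to 20.0. The next was at chr10:8287276-8287825 inside Ust, which encodes a sulfotransferase of glycosaminoglycans, at 16.9-fold with 41 fragments (29.4 to 55.6). Its nearest H3K27ac peak lay 191 kb away. Inside Tmem260, an O-mannosyltransferase gene, lay 3 of the peaks. Of these, chr14:48475834-48476286 reached 16.1-fold (39 fragments) and chr14:48475338-48475688 reached 14.1-fold (34 fragments), beside a lower one of 6.43-fold. Auts2, a large neurodevelopmental gene, also held 3 (4.25 to 6.67), as did Trdn, a gene of the muscle calcium release complex (5.0 each).

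Other high peaks were spread over distal positions. Within Tet3, whose product oxidises methylated cytosine, the peak at chr6:83421847-83422270 reached 14.4-fold with 36 fragments (25.2 to 49.8). One at chr17:15093383-15093835, 3.65 kb from Ermard, reached 15.5-fold, and one 34.9 kb from the protease gene Adamts18 reached 13.3-fold. A 12.5-fold peak with 32 fragments (21.9 to 45.2) at chr12:104532048-104532329 lay 59.0 kb from Gsc, a homeobox gene of the organizer and a target of Nodal signalling. H3K27ac there was 219 kb away, and the peak lay 867 bp from an end of the non-coding RNA gene Gm10000. Among the 15 highest, 4 had H3K27ac within 1 kb, where 24.1% of all the peaks did. The cut at 15 runs through a tie, as the peaks ranked 13 to 17 all had 11.3-fold and 27 fragments. Of the tied peaks left out, one inside Runx1t1 lay 269 bp from H3K27ac and one nearest to Sall3 lay 335 kb from it.

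The 4 of the 15 with H3K27ac within 1 kb lay at Cfc1 and Prss40, near Cxxc5, near Slfn3 and inside Cbfa2t2 (544 bp). The peak at chr1:34536912-34537341 lay inside both Cfc1, which encodes the Nodal co-receptor Cryptic, and Prss40, a testis protease gene, at 12.9-fold with 41 fragments (29.4 to 55.6) and 60 bp from H3K27ac. The peak 17.3 kb from Cxxc5, which encodes a CXXC zinc finger protein, reached 11.5-fold, 45 bp from H3K27ac. The peak 18.8 kb from Slfn3 reached 11.3-fold, 128 bp from H3K27ac. At the far end, the 11.3-fold peak whose nearest protein-coding gene was Klhl29 lay 680 kb from it and 17394 bp from an end of the non-coding gene Gm32576. The remaining peaks of the 15 were one of 12.9-fold inside Cbfa2t2, a co-repressor gene, one of 11.4-fold 53.3 kb from Rgs6, a regulator of G protein signalling, and one of 11.3-fold 13.5 kb from Rdh16, a retinol dehydrogenase gene.

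The lowest peaks include some with many fragments over a high background. The peak nearest to Csmd1 had 50 fragments over a background of 16 (fold 3.00), and the one nearest to Gm52481 on chromosome Y had 41 over 15 (fold 2.63). A peak 69.3 kb from Il7 (fold 3.33), closer to the non-coding gene Gm16685, had 19 fragments over a background of 5, and one at Gmip (3.20) had 15 over 4.

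At gene ends the highest, after Prss40 and Gm10000, was Shcbp1, whose product works in cytokinesis, at 9.50-fold with 24 fragments (15.4 to 35.7), 250 bp from the end and 43.3 kb from the nearer mark. It was followed by 1600012H06Rik with Wdr27 (9.17), Sel1l3 (8.88), Erich3 (8.84), Gm35502 (8.82), D230030E09Rik (8.74), Mns1 (8.30) and Tbc1d30 (8.04).

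Over all annotated genes, 0.573% (286 of 49943) had one of the peaks within 1 kb of an end, and over protein-coding genes 0.854% (187 of 21887). Of 48 imprinted genes, expressed from 1 parental allele, 7 did (14.6%, 7.25 to 27.2), through 6 peaks. Any Trim33 peak lay there at 10 of the 48, against 6.66% (1458 of 21887) of all protein-coding genes. The list was drawn up with earlier results of these data known and is not independent evidence. Peg10, a retrotransposon-derived placental gene, and its neighbour Sgce shared a peak at chr6:4747774-4748088, 5.26-fold with 15 fragments (8.4 to 24.7), 280 bp from CTCF and 620 bp from H3K27ac. Dio3, which encodes a thyroid hormone deiodinase, had 12 fragments (6.2 to 21.0, fold 5.22) at chr12:110280516-110280885.

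Nnat, a neuronal membrane protein gene, had 23 fragments (14.6 to 34.5, fold 4.80) at chr2:157560285-157560544. Plagl1, which encodes a zinc finger growth regulator, had 19 fragments (fold 4.00) at chr10:13090893-13091096. Cdkn1c, a cell cycle inhibitor gene, had 15 (fold 3.94) at chr7:143460589-143460819, and Gnas, which encodes a G protein subunit, had 13 (fold 3.50) at chr2:174284744-174284971. All 6 peaks lay below the median fold of 5.63, and Nnat and Plagl1 stood over a background of 4.00.

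Lists of signalling and lineage genes held 1 or 2 of the peaks each or none, beside the 0.854% of all protein-coding genes, with wide intervals. Of 37 Nodal and TGF-beta genes (2.70%, 0.479 to 13.8) the receptor gene Acvr2a had one (5.63-fold, 13 fragments, 6.92 to 22.2), 88 bp from H3K27ac. Any Trim33 peak lay at 7 of the 37, against 6.66% of all protein-coding genes. Of 34 Wnt genes (5.88%, 1.63 to 19.1) Sp5 (6.83-fold, 16 fragments, 9.15 to 26.0) and the inhibitor Sfrp2 (4.94) had a peak with neither mark. Of 25 BMP genes (4.0%, 0.710 to 19.5) the ligand Bmp7 (4.25) did. Sp5 and the Notch ligand Dll1 (4.62) were the 2 of 24 primitive streak genes (8.33%, 2.32 to 25.8). The heart transcription factor genes Hand1 (5.59) and Nkx2-5 (5.0, 24 fragments, 15.4 to 35.7) were 2 of 18 (11.1%, 3.10 to 32.8), the blood and endothelial factor Fli1 (6.83) 1 of 18 (5.56%, 0.988 to 25.8), and the neural factor Sox1 (4.82) 1 of 21 (4.76%, 0.846 to 22.7).

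None of 24 pluripotency (upper Wilson limit 13.8%), 20 endoderm (16.1%), 40 chromatin (8.76%), 81 ribosomal protein (4.53%), 39 Hox (8.97%), 30 germline methylated (11.4%), 68 Trim (5.35%) or 1465 olfactory and vomeronasal genes (0.262%) had one. Only the last limit lay below 0.854%. Trim33 peaks of another class lay at 20 of 81 ribosomal protein, 8 of 40 chromatin, 4 of 24 pluripotency, 3 of 68 Trim and 2 of 20 endoderm genes. Any Trim33 peak lay at 6.66% of all protein-coding genes. The Hox, germline methylated, and olfactory and vomeronasal genes had no Trim33 peak of any class. Of 394 zinc finger genes 6 had a peak with neither mark (1.52%, 0.70 to 3.28), with folds from 4.97 at Zfp687 to 6.08 at Zfp3. Of 57 protocadherin genes Pcdhgc4 did (4.67). Among small RNA genes, 5 peaks lay at 11 of 408 tRNA genes (2.70%) and 6 at 9 of 1228 miRNA genes (0.733%). The share was 0.573% of all annotated genes. For tRNA genes it was 3.19% with CTCF only, 1.47% with H3K27ac only and 1.72% with both. For miRNA genes it was 0.326%, 0.570% and 0.651%, in the same order. The highest peaks with neither mark were at a group of tRNA genes on chromosome 19 (7.64), at the Mir376b, Mir376a and Mir300 cluster (6.72) and at Mir193a (6.03).

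**Figure D4:**
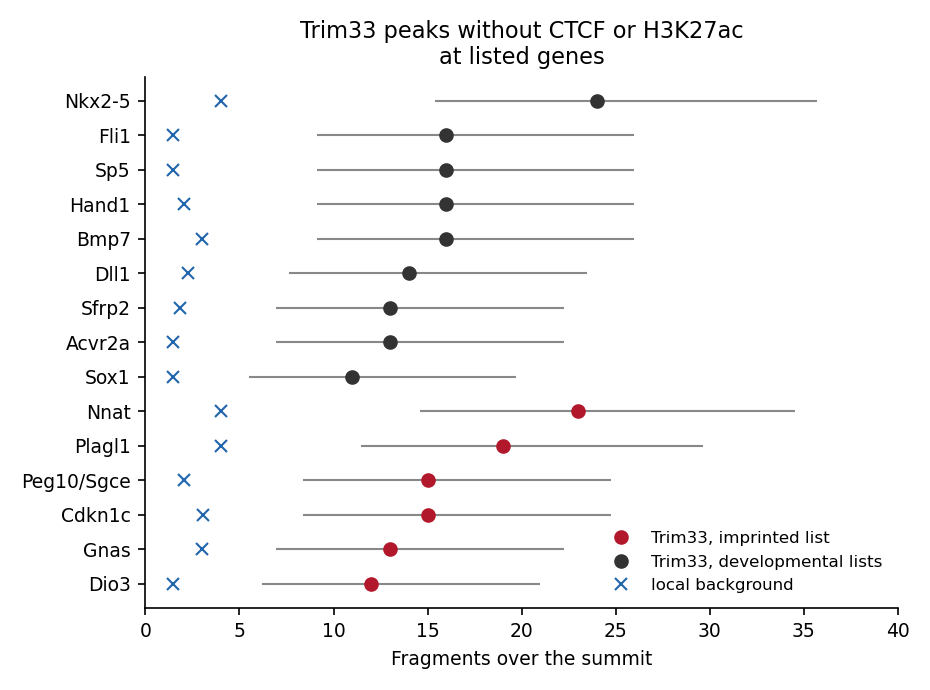
Fragments over the summit (points) with exact 95% Poisson intervals (lines) and local background (crosses) for peaks within 1 kb of genes of the imprinted and developmental lists. Counts run from 11 at Sox1 to 24 at Nkx2-5; peaks were listed for exceeding local background, so their height above it is no finding.

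Another Trim33 peak lay within 10 kb of 172 (15.4%, 13.4 to 17.6), against 26.8% with H3K27ac only (difference -11.4 percentage points, -14.6 to -8.22) and 27.3% with both. The share with CTCF only was 16.8%, and the difference from it was -1.44 points (-4.28 to 1.46), an interval that includes 0. The nearest such neighbour was also without either mark in 88 of the 172, and had H3K27ac only in 41, CTCF only in 29 and both in 14. A neighbour of the same class was the most frequent in the other classes too. It was nearest in 136 of 239 peaks with CTCF only, 237 of 356 with H3K27ac only and 59 of 152 with both. Runs within 10 kb numbered 44 and held 91 peaks, 41 of them pairs. The 3 runs of 3 peaks lay nearest to Rdh16 on chromosome 10, Gm42226 on chromosome 5 and Gm52481 on chromosome Y.

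Across autosomes, the share of Trim33 peaks with neither mark ran from 18.6% (69 of 370) on chromosome 11 to 35.3% (61 of 173) on chromosome 14, and chromosome Y had 3 of 8. Over 19 autosomes it was lower where CpG islands were denser (Pearson −0.60, Spearman −0.65, a description only). The number of such peaks per Mb was only weakly related to CpG islands per Mb (Pearson 0.40, Spearman 0.29), while all Trim33 peaks per Mb rose with them (0.93 and 0.88). All points share 1 library, and gene density varies with CpG islands.

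**Figure D5:**
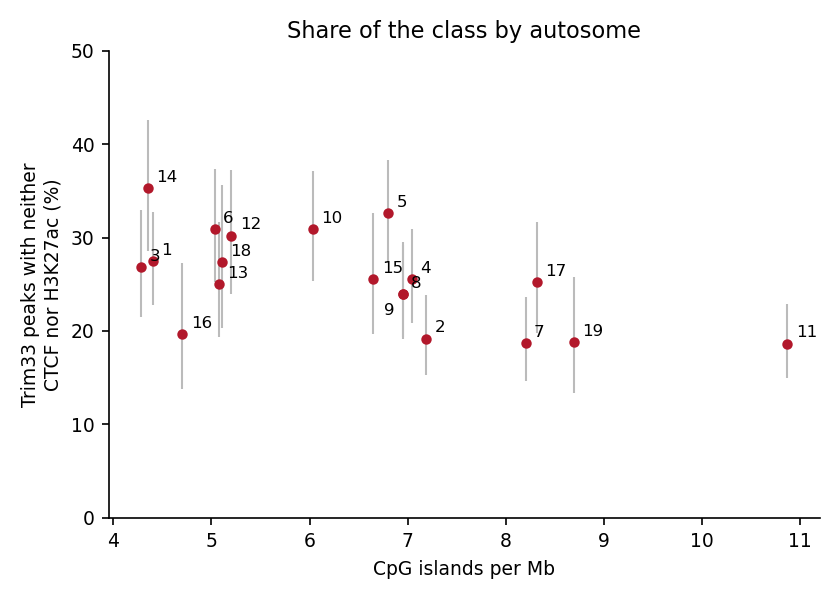
Share of Trim33 peaks with neither CTCF nor H3K27ac (%) on each autosome against CpG islands per Mb, with 95% Wilson intervals. Chromosome 14 stands at 35.3% and chromosome 11, with the most islands per Mb, at 18.6%.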

How the data were processed

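Per the submitters' processing notes, BWA 0.7.12, MACS, MACS2 and SICER 1.1 were used, with mm10 among the builds; which tool made which file is not given there. The authors' deposited table names MACS 2.1.0, a p-value cut-off of 1e-05, removal of duplicate reads and of blacklisted peaks, and an input scaled to 13643929 tags for Trim33. Peaks were called per library. The deposited peak lists hold a score, a fold enrichment (a ratio over local background), −log10 p and −log10 q per peak. The authors' deposited tables also give counts of tags, merged regions, genes and CpG islands.

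All further values were computed in Python 3.11.15 (pandas 2.3.3, numpy 2.4.6, with scipy 1.17.1 for intervals), and plots were drawn in matplotlib 3.10.9. Peaks overlapped from 1 shared bp. Fragments and local background were recovered from p and from fold, taken as their ratio with 1 added to both. All 4426 peaks were solved within 0.0005 in −log10 p. Gene ends came from RefSeq GRCm38.p6 (49943 genes, no strand or exons), so exons and introns were not told apart. Transcript starts and sequences came from its promoter table; chromosomes absent from that table were not used for them. Shares have 95% Wilson intervals, differences Newcombe intervals and fragments exact Poisson intervals; no test was run, with 1 library per antibody. Scripts were tested on simulated data.

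The members and lists were chosen with earlier results of these data known. Named genes are the protein-coding genes nearest to the 15 highest peaks, the 10 highest at gene ends, the 5 highest with neither mark within 10 kb (all among the 15 highest), the 5 lowest, imprinted genes and up to 6 genes per other list with a peak, the 5 genes holding most peaks, and 3 peaks on each side of the rule's edge. One of the lowest peaks is not reported here. Genes named beyond that rule were chosen after their values were seen. Alternatives were stricter lists, other overlaps, windows and gene sets, and no sex chromosomes.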

Additional observations from a re-analysis of the deposited data

How the results depend on the processing

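Of 42 alternative values, 23 stayed close to the reported one (counts within 1.5 times, other values inside its 95% interval) and 19 moved. Among the former, the number of peaks ran from 773 (marks within 1 kb shared) to 1432 (mark over the summit) and the number of imprinted genes from 5 to 8. With a −log10 q of at least 10, 127 peaks had neither mark, with a median fold of 8.44, 12.6% at gene ends, 4.72% within 10 kb of another Trim33 peak and 0 imprinted genes. At or above the median fold, these values were 536, 6.67, 18.5%, 8.58% and 0. When marks within 1 kb counted as shared, 18.6% lay at gene ends and 12.2% close to another Trim33 peak. When a mark had to cover 50% of the peak or its summit, 25.5% and 25.6% lay at gene ends. The share at gene ends was 15.4% with a 500 bp window, 42.9% with 5 kb and 15.7% with protein-coding genes only. The share close to another Trim33 peak was 5.81% at 1 kb and 45.7% at 100 kb. Windows change such shares by construction; for the other settings the cause was not tested. No paired analysis was possible because there is 1 library per antibody. Summits of the 1119 peaks hold 10 fragments or more, and those of all Trim33 peaks 9 or more. A detection limit was not measured.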
